A study of Musculus with 2 samples.

Results

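Mast cells and basophils are the cells of the stromal vascular fraction of fat that carry the high-affinity receptor for IgE. They were selected from subcutaneous white adipose tissue (sWAT) by 3 marker genes: Cpa3, a granule carboxypeptidase of mast cells, Ms4a2, the beta chain of the IgE receptor, and Mcpt8, a protease of basophils. A barcode was taken when its UMIs (unique molecular identifiers, each standing for 1 captured RNA molecule) of these genes summed to 2 or more with at least Ms4a2 or Mcpt8 detected, Cd3e was at 0, and both Dcn and the sum of C1qa, C1qb and C1qc were under 10. Cd3e is a gene of T cells, Dcn of fibroblasts and the C1q genes of macrophages. Barcodes had been kept where they showed at least 500 genes and no more than 10% mitochondrial UMIs (genes named mt-). Of the 24090 kept, 59 were taken, 23 of 11664 in the LPCAT3-AKO library and 36 of 12426 in the Control library.

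The study concerned the remodelling of phosphatidylcholine in adipose tissue, which LPCAT3 carries out by placing polyunsaturated fatty acids into lysophospholipids. The LPCAT3-AKO library came from mice whose genotype the labels give as LPCAT3 knockout, and the Control library from mice given as WT. The sample labels give an age of 5 weeks for both and the text of the series an age of 2 months and a diet coded CD. The Cre or promoter behind the knockout, the number of mice pooled per library and their sex are not given in the labels, and whether mast cells carry the deletion was not tested. The fraction was made by collagenase digestion, and mature adipocytes were spun off. With 1 library per genotype no test between genotypes was possible: the values below describe these 2 libraries, and every interval is a 95% interval of counting error only, without the spread between mice.

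Mast cells are long-lived tissue cells that mature from blood-borne or embryonic precursors under the growth factor receptor Kit. They store histamine, serotonin, proteoglycans, chymases (chymotrypsin-like proteases), tryptases and carboxypeptidase in granules and release them when IgE receptors are crosslinked or when Mrgprb2 is engaged. Connective tissue mast cells, the kind found in skin and fat, carry the chymases Cma1 and Mcpt4 and the tryptase Tpsb2, while mucosal mast cells carry Mcpt1 and Mcpt2. Basophils are short-lived blood cells that share the IgE receptor and histamine with mast cells and are told from them in mice by Mcpt8.

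The label was checked against its markers first, and only mast cells were found. Mcpt8 had 0 UMIs in every barcode of both matrices, kept or not, so the rule split off 0 basophils. A count of 0 among 11664 LPCAT3-AKO and 12426 Control barcodes allows a share of basophils with an Mcpt8 UMI of up to 0.0257% and 0.0241%. A second look without Mcpt8 used Cd200r3, Fcer1a, Ms4a2, Gata2, Hdc and Il4, 6 genes of basophils that mast cells share in part. Barcodes with under 10 summed UMIs of Cpa3, Cma1, Mcpt4 and Tpsb2 and 3 or more of the 6 genes numbered 0 in both libraries. In the selection, 22 of 23 LPCAT3-AKO and 35 of 36 Control cells had 3 or more of the 6 genes detected. With Mcpt8 at 0, the rule required Ms4a2, which is among the 6, in each selected cell. The counts of selected cells were thus set in part by the rule and are given as a description. Of a list of 15 basophil genes, Mcpt8, Ccr3, Cyp4f18, Grm6 and Alox15 were at 0 in the selected cells. The other 10 had a UMI there. Among them, Prss34 was detected in 8 LPCAT3-AKO and 14 Control cells, Cd200r3 in 11 and 12, and Itga2 in 6 and 6. Cd69 was detected in 6 LPCAT3-AKO and 11 Control cells and Cd200r4 in 7 and 6. All 59 cells carried many UMIs of the connective tissue mast cell proteases and are called mast cells from here on.

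Since Mcpt8 was at 0, the rule came down to 1 detected UMI of Ms4a2. Exactly 1 Ms4a2 UMI was present in 11 of the 23 LPCAT3-AKO and 20 of the 36 Control mast cells. The mark at 2 summed UMIs was not near any mast cell: the lowest Cpa3 count was 10 UMIs among LPCAT3-AKO and 5 UMIs among Control mast cells, and just outside stood 2 LPCAT3-AKO and 5 Control barcodes with 1 Ms4a2 and 0 Cpa3 UMIs. The limit of Dcn left out 6 LPCAT3-AKO and 2 Control barcodes, that of the C1q genes 1 LPCAT3-AKO and 0 Control barcodes, and that of Cd3e 0 in both. Of those left out by Dcn, 5 LPCAT3-AKO and 1 Control barcode held 20 or more UMIs of the 4 proteases. These values chose the cells and are given as a description.

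A barcode can be a mast cell and still lack an Ms4a2 UMI, because the receptor chain is counted only a few times per cell. A wider selection was therefore made after the values had been seen: 20 or more UMIs and 1% or more of all UMIs from Cpa3, Cma1, Mcpt4 and Tpsb2, with the same limits on Cd3e, Dcn and C1q. These limits left out 9 LPCAT3-AKO and 13 Control barcodes at that protease level. The selection held 60 LPCAT3-AKO and 68 Control barcodes and included all 59 mast cells of the rule. The 37 LPCAT3-AKO and 32 Control barcodes it added had Ms4a2 at 0 and are called Ms4a2-negative mast cells here. They come from the same 2 libraries and so are further cells of the same mice, not replicates. Barcodes with 5 to 19 UMIs of the 4 proteases numbered 9 in the LPCAT3-AKO and 2 in the Control library.

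**Figure D1:**
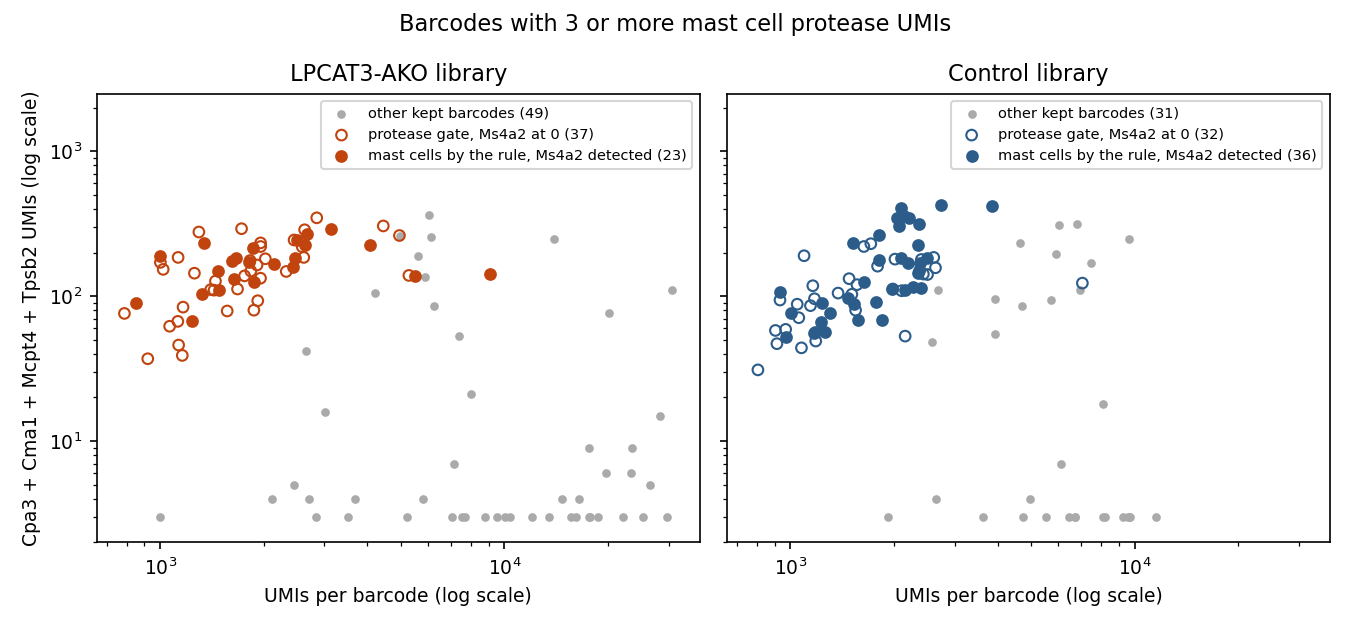
UMIs of Cpa3, Cma1, Mcpt4 and Tpsb2 summed per barcode (log scale) against all UMIs of the barcode (log scale), for kept barcodes with 3 or more such UMIs in the LPCAT3-AKO (left) and Control (right) library. Filled points are the 23 and 36 mast cells with an Ms4a2 UMI, open points the 37 and 32 Ms4a2-negative mast cells of the wider selection, and grey points other barcodes; filled and open points overlap, and 2 filled points of the LPCAT3-AKO library lie above 5000 UMIs.

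Mast cells were rare in both libraries. They made up 0.197% (0.125 to 0.296) of kept barcodes in the LPCAT3-AKO library and 0.290% (0.203 to 0.401) in the Control library, exact Clopper-Pearson intervals. The ratio of the shares was 0.681 (0.385 to 1.18), an interval that includes 1. By the wider selection the shares were 0.514% (0.393 to 0.662) in LPCAT3-AKO and 0.547% (0.425 to 0.693) in Control, a ratio of 0.940 (0.653 to 1.35). Ms4a2-negative mast cells made up 0.317% in LPCAT3-AKO and 0.258% in Control, a ratio of 1.23 (0.747 to 2.04). The ratio under the rule thus moved with how often Ms4a2 was caught. Ms4a2 was detected in 38.3% of the LPCAT3-AKO and 52.9% of the Control cells of the wider selection, at 354 CPM (258 to 473) in LPCAT3-AKO and 477 CPM (363 to 615) in Control. CPM is the summed UMIs of a gene per 1000000 UMIs of the same cells. By the rule alone, fewer mast cells and fewer captured receptor molecules per cell cannot be told apart.

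The mast cells gave far fewer UMIs per barcode than the rest of the fraction. Their median was 1864 UMIs and 1054 genes in LPCAT3-AKO and 1912.5 UMIs and 977.5 genes in Control, against medians of 8900 UMIs in LPCAT3-AKO and 8396 UMIs in Control over the other barcodes. "Other barcodes" means the kept barcodes outside the rule and without the protease level of the wider selection. Summed over cells, the mast cells gave 55760 UMIs in LPCAT3-AKO and 67424 UMIs in Control, so 1 UMI stood for 17.9 CPM in LPCAT3-AKO and 14.8 CPM in Control and a gene at 0 for up to 53.8 CPM and 44.5 CPM (3 UMIs). The libraries held 12806 LPCAT3-AKO and 13831 Control barcodes and shared 58 barcode sequences, of which 0 belonged to a mast cell. The targeted gene, Lpcat3, had 0 UMIs in LPCAT3-AKO and 2 UMIs in Control mast cells, too few to compare. In other barcodes it stood at 30.8 CPM in LPCAT3-AKO and 27.7 CPM in Control. The tags counted may come from exons that the deletion spares, so neither value checks it.

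Of the 23 LPCAT3-AKO mast cells, 2 stood apart by depth, with 9055 and 5480 UMIs, while the deepest Control mast cell had 3849 UMIs. Both held full mast cell protease counts, 142 and 138 UMIs over the 4 genes, together with RNA of other cell types. The cell of 9055 UMIs held 77 UMIs of Retnla, 69 of Cd74, 33 of H2-Ab1 and 29 of Lyz2, genes of macrophages and antigen-presenting cells. It held 147 UMIs over the 10 dendritic cell markers, which include Cd74 and H2-Ab1 and so count their UMIs again. The cell of 5480 UMIs held 67 UMIs of Fabp4, a fatty acid binding protein of adipocytes and vessels, and 15 UMIs over the 10 B cell markers. The pair gave 26.1% of all LPCAT3-AKO mast cell UMIs, so ratios below are also given without them where a call is described. Among Ms4a2-negative mast cells, 1 LPCAT3-AKO cell of 5276 UMIs and 1 Control cell of 7051 UMIs were also deep. They held 69 and 88 UMIs of dendritic cell markers. Lyz2 and Retnla had 0 UMIs in this LPCAT3-AKO cell and 42 and 45 UMIs in this Control cell.

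The granule proteases were among the most abundant messages of these cells. Cma1, the chymase of connective tissue mast cells, had 27762 CPM (26396 to 29180.1) in LPCAT3-AKO and 38948 CPM (37472 to 40466) in Control mast cells. Malat1, a nuclear RNA, was the only gene above it in LPCAT3-AKO, and no gene was above it in Control. Mcpt4, a chymase with an activity like that of human chymase, had 19261 CPM (18126 to 20448) in LPCAT3-AKO and 23582 CPM (22437 to 24770.4) in Control mast cells. The tryptase Tpsb2 had 11693 CPM (10813 to 12626) in LPCAT3-AKO and 14372 CPM (13481 to 15306) in Control mast cells. Other barcodes had 4.75 and 3.16 CPM of Cma1, 5.38 and 3.59 CPM of Mcpt4 and 3.40 and 2.23 CPM of Tpsb2 in LPCAT3-AKO and Control. Each of the 3 was detected in 23 of 23 LPCAT3-AKO and 36 of 36 Control mast cells, against 3.65% of LPCAT3-AKO and 2.58% of Control other barcodes for Cma1. Cpa3, which the rule used, had 12733 CPM in LPCAT3-AKO and 16522 CPM in Control mast cells.

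The second tryptase gene and the minor proteases were caught in fewer cells. Tpsab1 had 14 UMIs in LPCAT3-AKO and 23 UMIs in Control mast cells, in 4 and 14 cells, and 1 cell held 64.3% of the LPCAT3-AKO UMIs. Tpsg1, a membrane-anchored tryptase, had 13 UMIs in LPCAT3-AKO and 20 UMIs in Control mast cells. Ctsg, cathepsin G, had 2 UMIs in LPCAT3-AKO and 8 UMIs in Control mast cells, and the chymase Cma2 had 2 UMIs in LPCAT3-AKO and 5 UMIs in Control mast cells. The mucosal chymases were near or at 0: Mcpt1 and Mcpt9 had 0 UMIs in mast cells of both libraries, and Mcpt2 had 1 UMI in LPCAT3-AKO and 0 in Control. Tpsb2 and Tpsab1 are close relatives, as are the Cma and Mcpt genes among themselves. How reads were shared within each group is not stated in the labels, so low counts of one of these genes are uncertain.

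Per cell the protease load varied widely within each library. The 4 proteases took a lowest, median and highest share of 1.57%, 8.60% and 19.02% of a cell's UMIs in LPCAT3-AKO, and 3.73%, 7.33% and 19.3% in Control. The ranges overlapped almost wholly. Summed UMIs and the typical cell ordered the libraries differently: summed over the 11 proteases of the list, LPCAT3-AKO mast cells had 72023 CPM and Control mast cells 94254 CPM, while the median cell had the higher share in LPCAT3-AKO. Without the 2 cells over 5000 UMIs the LPCAT3-AKO sum was 90552 CPM. In Ms4a2-negative mast cells the order was the other way, with 83164 CPM in LPCAT3-AKO and 66754 CPM in Control. Those cells were chosen by the same 4 proteases, so their values are a description. The sum and the median cell of the mast cells of the rule thus gave no steady direction for the protease load.

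The mix of the 4 proteases also varied between cells. Cma1 was the largest of the 4 in the typical cell, at a median of 38.5% (quartiles 34.1% and 41.6%) of the 4 in LPCAT3-AKO and 45.6% (quartiles 36.7% and 50.1%) in Control. Mcpt4 followed with medians of 27.0% in LPCAT3-AKO and 23.4% in Control. Cpa3 took 18.3% in LPCAT3-AKO and 17.3% in Control, and Tpsb2 16.7% in LPCAT3-AKO and 15.4% in Control. As a description across cells, the share of UMIs taken by Cpa3 and that taken by Mcpt4 had a Spearman rho of 0.727 over 23 LPCAT3-AKO and 0.684 over 36 Control cells. Mcpt4 and Tpsb2 had a rho of 0.282 in LPCAT3-AKO and 0.746 in Control. Cma1 and Kit had a rho of -0.0277 in LPCAT3-AKO and -0.233 in Control. The cells of a library share that library, and the values of a cell share its UMI total.

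**Figure D2:**
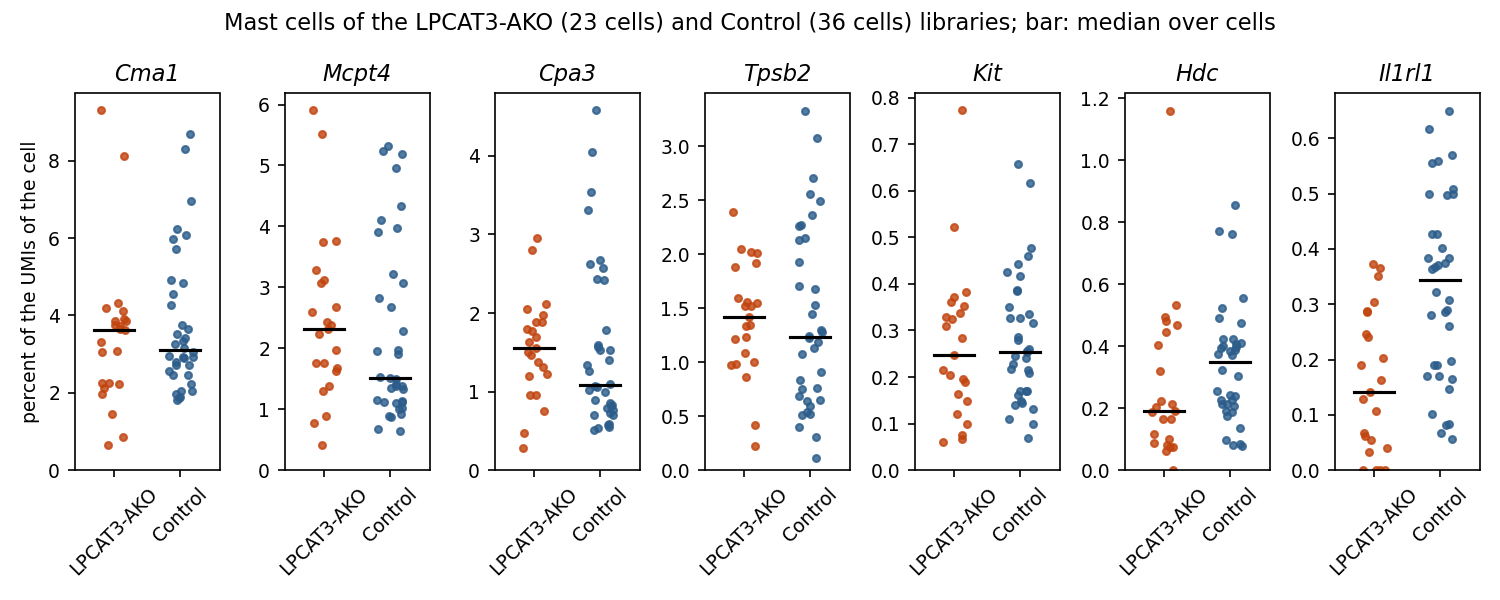
Share of each mast cell's UMIs (percent, vertical axes from 0) taken by Cma1, Mcpt4, Cpa3, Tpsb2, Kit, Hdc and Il1rl1, with 1 point per cell for the 23 LPCAT3-AKO cells (left in each panel) and the 36 Control cells (right); horizontal bars mark medians over cells. The point clouds overlap in all panels, and the medians for Il1rl1 are 0.141% in LPCAT3-AKO and 0.343% in Control.

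Genes were ranked by the mean log2 ratio of mast cells over other barcodes in both libraries, at 100 CPM or more and with the rule genes Cpa3 and Ms4a2 left out. The 12 highest were the proteases Cma1, Mcpt4 and Tpsb2 together with Mrgprb1, Hdc, Fcer1a, Kit, Slc6a4, Slc18a2, Serpinb1a, Hs6st2 and Gata2. These ratios are a description, since the cells were chosen by genes that go with them. Kit, the stem cell factor receptor, had 2421 CPM (2029.9 to 2866) in LPCAT3-AKO and 2803 CPM (2418 to 3233) in Control mast cells and was detected in all 59, against 11.3 CPM in LPCAT3-AKO and 8.95 CPM in Control other barcodes. Mrgprb1, a receptor of the Mrgpr family, had 2511 CPM in LPCAT3-AKO and 3174 CPM in Control mast cells, against 0.513 CPM and 0.347 CPM in other barcodes. The transcription factor Gata2, needed for mast cell and basophil formation, had 1076 CPM (821 to 1385) in LPCAT3-AKO and 742 CPM (550.4 to 978) in Control mast cells.

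Amine handling was among the clearest traits. Hdc, which makes histamine, had 2493 CPM (2096 to 2943) in LPCAT3-AKO and 3382 CPM (2957 to 3850.2) in Control mast cells. Slc18a2, which pumps amines into granules, had 1129.8 CPM in LPCAT3-AKO and 1127 CPM in Control mast cells. The serotonin transporter Slc6a4 had 1202 CPM in LPCAT3-AKO and 1172 CPM in Control mast cells. Other barcodes had 3.14 CPM in LPCAT3-AKO and 2.43 CPM in Control of Hdc and less of the other two. Among granule genes, Srgn, the proteoglycan core that holds proteases, had 4035 CPM in LPCAT3-AKO and 4939 CPM in Control mast cells, against 278 CPM and 323 CPM in other barcodes. Rab27b, a small GTPase of granule release, had 753 CPM in LPCAT3-AKO and 860.2 CPM in Control mast cells.

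Of the IgE receptor, the beta chain Ms4a2 chose the cells, so its presence is no finding, while the alpha and gamma chains were not used. The alpha chain Fcer1a had 1489 CPM (1186 to 1845) in LPCAT3-AKO and 1824 CPM (1516 to 2177) in Control mast cells, against 0.214 CPM and 0.183 CPM in other barcodes. The shared gamma chain Fcer1g had 2421 CPM in LPCAT3-AKO and 2581 CPM in Control mast cells, against 515 CPM and 580.3 CPM in other barcodes, which include macrophages. Prss34, a protease often used to mark basophils, was present here in mast cells, with 35 UMIs in LPCAT3-AKO and 55 UMIs in Control mast cells, in 8 and 14 cells, and 0.111 CPM and 0.100 CPM in other barcodes. Its counts were uneven, with up to 14 UMIs in an LPCAT3-AKO cell, 16 UMIs in a Control cell and a median of 0 in both. Cd200r3, an activating receptor of mast cells and basophils in mice, had 20 UMIs in LPCAT3-AKO and 17 UMIs in Control mast cells.

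To compare the genotypes gene by gene, a gene was tested by size when it reached 50 CPM in the library with the higher level. It was called when its ratio of LPCAT3-AKO over Control was at least 1.5 either way, the counting interval excluded 1 and at least 5 cells of the higher library had a UMI. Of 4264 genes, 87 (2.04%) were called higher and 48 (1.13%) lower in LPCAT3-AKO, 135 (3.17%) in all. If UMIs were independent draws, a 95% counting interval would exclude 1 for up to 5% of equal genes. They were pooled over cells and can cluster in single cells, and the rule adds a minimum ratio and number of cells. Of the 4264 genes, 602 had 3 or fewer UMIs in the higher library, too few for a call in 5 cells. The 5% is therefore no expected share of calls, and the calls are read one by one and beside the shares above. Of the 135, 60 had 3 or fewer UMIs in the lower library. Without the 2 LPCAT3-AKO cells over 5000 UMIs, 91 genes (2.45%) of 3716 were called higher and 46 (1.24%) lower, 3.69% in all, of which 50 and 22 were also called with them. The median log2 ratio (of CPM + 10) over all genes was 0.23 with these cells, 0.097 with genes at 0 in one library set to a bound of 3 UMIs, and 0.03 without the 2 cells. Calls depended on which cells entered: of 63 called genes followed through the alternatives, 5 were called under each of the 9 alternatives that change the cells or their weights, and 58 were not called under at least 1. The 5 were Il1rl1, Tph1 and Slc7a8, called lower, and Tal1 and Rpl38, called higher.

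**Figure D3:**
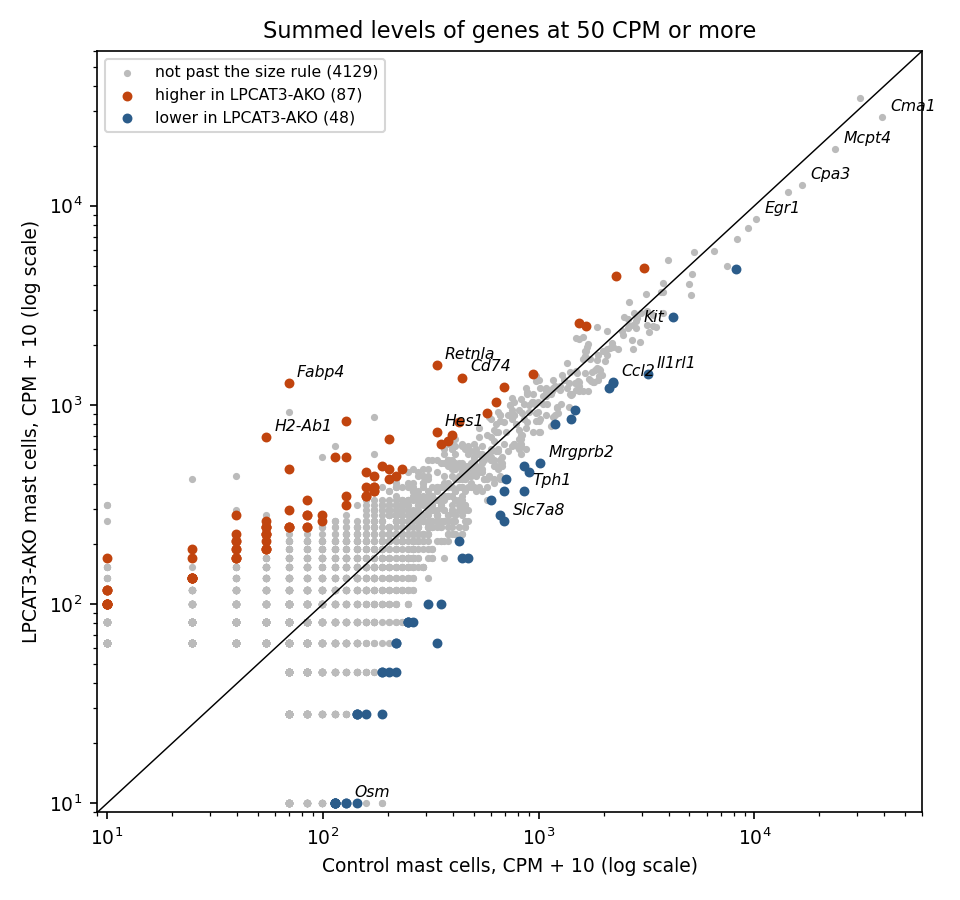
Summed level of each of the 4264 genes in LPCAT3-AKO mast cells (vertical axis, CPM + 10, log scale) against Control mast cells (horizontal axis, CPM + 10, log scale), with the line of equal levels. Red points are the 87 genes called higher and blue points the 48 called lower in LPCAT3-AKO; Fabp4, H2-Ab1, Retnla and Cd74 lie far above the line and rest on 2 deep cells, while Il1rl1 lies below it at 1417 CPM in LPCAT3-AKO and 3218 CPM in Control.

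No protease and 3 identity genes were called between the libraries. Of the 8 proteases tested, which include the rule gene Cpa3, 0 were called in either direction, with a median log2 ratio of -0.40. Of the 13 other identity genes tested, 0 were called higher and 3 lower, Mrgprb2, Tph1 and Smpx, with a median of -0.65. Over all genes the shares called were 2.04% higher and 1.13% lower. Kit had a ratio of 0.864 (0.687 to 1.08), Mrgprb1 of 0.791 (0.635 to 0.983) and Slc18a2 of 1.002 (0.706 to 1.42). The medians lie below that over all genes, and without the 2 deep cells they were -0.10 for proteases and -0.23 for identity genes, with 0 and 1 called lower. Of 9 tested basophil genes, 0 were called, with a median of -0.29. In Ms4a2-negative mast cells, all cells included, 4 proteases were called higher and 1 lower in LPCAT3-AKO (4.11% of all genes were called there in either direction). These cells were chosen by their UMIs of Cpa3, Cma1, Mcpt4 and Tpsb2, so their protease values are a description. Mcpt4 there had a ratio of 1.52 (1.40 to 1.65) up to 5000 UMIs, called higher, against 0.817 (0.755 to 0.883) in mast cells of the rule. This difference between the sets of cells was not tested.

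Among receptors, Il1rl1 was lower in LPCAT3-AKO. The gene encodes ST2, the receptor through which IL-33 drives mast cells. It had 79 UMIs in LPCAT3-AKO and 217 UMIs in Control mast cells, which is 1417 CPM (1122 to 1766) in LPCAT3-AKO and 3218 CPM (2804 to 3676) in Control mast cells. It was detected in 19 of 23 LPCAT3-AKO and 36 of 36 Control cells, with a lowest, median and highest share of 0%, 0.141% and 0.373% of a cell's UMIs in LPCAT3-AKO and 0.0564%, 0.343% and 0.649% in Control. The cells overlap, and the highest LPCAT3-AKO cell lies just above the Control median. The ratio was 0.440 (0.336 to 0.572), and 0.520 (0.391 to 0.685) without the 2 deep cells, called lower both times. The gap was smaller in Ms4a2-negative mast cells up to 5000 UMIs, with 168 UMIs in LPCAT3-AKO and 154 UMIs in Control, a ratio of 0.813 (0.650 to 1.02) that was not called. Other barcodes of the fraction had 17.2 CPM in LPCAT3-AKO and 40.8 CPM in Control, in 9.74% and 11.02% of barcodes, so its summed level was lower in LPCAT3-AKO there as well. Il1rl1 was the only one of 17 tested cytokine and surface receptors that was called in either direction (against 3.17% of all genes). The list median was -0.21.

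Mrgprb2, the receptor for basic secretagogues and neuropeptides that triggers mast cells without IgE, had 28 UMIs in LPCAT3-AKO and 68 UMIs in Control mast cells. Its ratio was 0.498 (0.309 to 0.784), called lower, but 0.649 (0.400 to 1.03) without the 2 deep cells, where it was not called. In Ms4a2-negative mast cells up to 5000 UMIs the ratio was 1.04 (0.673 to 1.62). The call for Mrgprb2 thus rested on the set of cells. The cytokine receptor chain Csf2rb had 20 UMIs in LPCAT3-AKO and 36 UMIs in Control mast cells, a ratio of 0.672 (0.368 to 1.19) that was not called. Of 13 tested genes of the IgE receptor and its signalling, 0 were called, with a median log2 ratio of 0.01. Ms4a2, which the rule required in every mast cell, is among the 13, so its part in this count is no finding. Fcer1a had a ratio of 0.816 (0.610 to 1.09) and the adaptor Lat2 of 1.10 (0.648 to 1.86). Of 12 tested inhibitory receptors, 0 were called, with Lilrb4a at 0.977 (0.522 to 1.81).

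In the synthesis of amines and lipid mediators, Tph1 was lower in LPCAT3-AKO. Tph1 carries out the first step of serotonin synthesis outside the brain. It had 20 UMIs in LPCAT3-AKO and 57 UMIs in Control mast cells, in 8 and 21 cells, a ratio of 0.424 (0.241 to 0.717) that was 0.545 (0.306 to 0.9302) without the 2 deep cells. Ms4a2-negative mast cells up to 5000 UMIs gave a ratio of 0.473 (0.310 to 0.714), also called lower. Histidine decarboxylase, Hdc, had a ratio of 0.737 (0.593 to 0.914), short of the rule's 1.5 either way, 0.911 (0.727 to 1.14) without the 2 cells and 0.588 (0.488 to 0.707) in Ms4a2-negative mast cells, where it was called lower. Alox5, the first enzyme of leukotriene synthesis, had 3 UMIs in LPCAT3-AKO and 14 UMIs in Control mast cells, a ratio of 0.259 (0.0477 to 0.928) that was called lower, but 0.350 (0.0646 to 1.26) without the 2 cells, not called, and had 12 UMIs in LPCAT3-AKO and 3 in Control among Ms4a2-negative cells. Hpgds, which makes prostaglandin D2, had 26 UMIs in LPCAT3-AKO and 19 UMIs in Control mast cells, a ratio of 1.65 (0.881 to 3.16) that was not called, and 2.07 (1.08 to 3.99) without the 2 cells, called higher. Of the 7 tested genes of this list, 0 were called higher and 2 lower (against 2.04% and 1.13% of all genes), with a median of -0.17.

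Granule machinery did not pass the rule: of 16 tested genes, 0 were called, with a median log2 ratio of 0.21, near that over all genes. Srgn had a ratio of 0.817 (0.687 to 0.970), Rab27b of 0.876 (0.574 to 1.33) and Cd63, a granule membrane protein, of 0.810 (0.588 to 1.11). Outside the list, Papss2, which makes the sulfate donor for proteoglycans, had 9 UMIs in LPCAT3-AKO and 31 UMIs in Control mast cells, a ratio of 0.351 (0.147 to 0.755), and 0.317 (0.108 to 0.770) without the 2 cells, called lower both times. It was chosen after its values were seen, and Ms4a2-negative mast cells gave a ratio of 0.807 (0.446 to 1.47) that was not called. Slc7a8, an amino acid transporter, stood at 0.368 (0.187 to 0.681) in mast cells, 0.462 (0.229 to 0.870) without the 2 cells and 0.699 (0.322 to 1.51) in Ms4a2-negative mast cells.

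Cytokine messages were few. Il4 had 4 UMIs in LPCAT3-AKO and 7 UMIs in Control mast cells and Il13 had 3 UMIs in LPCAT3-AKO and 2 UMIs in Control mast cells, and Il5, Il9, Il10, Ccl1, Ccl3, Ccl4 and Tslp had 0 in both. Tnf had 33 UMIs in LPCAT3-AKO and 26 UMIs in Control mast cells, a ratio of 1.53 (0.890 to 2.67) that was not called, while Ms4a2-negative mast cells gave 0.621 (0.385 to 0.997), called lower. The chemokines Ccl2 and Ccl7, which draw monocytes, had the highest levels of the list. Ccl7 had 81 UMIs in LPCAT3-AKO and 118 UMIs in Control mast cells, at 1453 CPM in LPCAT3-AKO and 1750.1 CPM in Control, and was not called. Ccl2 had 1291 CPM (1010.3 to 1626) in LPCAT3-AKO and 2195 CPM (1856 to 2579) in Control mast cells. Its ratio was 0.588 (0.438 to 0.785), 0.630 (0.456 to 0.860) without the 2 cells and 0.591 (0.454 to 0.767) in Ms4a2-negative mast cells up to 5000 UMIs, called lower each time. Ccl2 was also lower over the other barcodes, at 369 CPM in LPCAT3-AKO and 647 CPM in Control, where 42.4% and 55.4% of barcodes had a UMI; the part of free RNA of these cells in the mast cell value was not tested. Osm, the cytokine oncostatin M, had 0 UMIs in LPCAT3-AKO and 8 UMIs in Control mast cells, at least 2.21-fold lower against a floor of 3 UMIs, and 2 UMIs in LPCAT3-AKO and 9 UMIs in Control Ms4a2-negative mast cells. Of 14 tested cytokines and chemokines, 0 were called higher and Ccl2 and Osm lower (against 2.04% and 1.13% of all genes). The median log2 ratio was 0.42, and -0.24 without the 2 deep cells. The LPCAT3-AKO cell of 9055 UMIs held 34 UMIs of Ccl6, 12 of Ccl9, 49 of Cxcl2 and 11 of Il1b, which is 100%, 100%, 96.1% and 91.7% of the LPCAT3-AKO mast cell UMIs of these genes.

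Transcription factors of the lineage gave 2 calls. Of 21 tested, 2 were called higher and 0 lower, against 2.04% and 1.13% of all genes. Tal1, a blood lineage factor, had 26 UMIs in LPCAT3-AKO and 13 UMIs in Control mast cells, a ratio of 2.42 (1.20 to 5.13), and Ikzf1, which encodes Ikaros, had 21 UMIs in LPCAT3-AKO and 11 UMIs in Control mast cells, a ratio of 2.31 (1.06 to 5.30). Without the 2 deep cells 4 were called higher (against 2.45% of all genes), Tal1 at 3.02 (1.48 to 6.46), Ikzf1 at 2.82 (1.28 to 6.57), Nfkbia and Gata2. Gata2 stood at 1.90 (1.28 to 2.83), against 1.45 (0.980 to 2.16) with them. In Ms4a2-negative mast cells up to 5000 UMIs, Tal1 had a ratio of 1.02 (0.436 to 2.45), Ikzf1 of 0.877 (0.436 to 1.78) and Gata2 of 1.33 (0.893 to 2.00), and none of these 3 was called. The median of the list was -0.04. Outside the lists, the forkhead factor Foxp1 had 68 UMIs in LPCAT3-AKO and 46 UMIs in Control mast cells, a ratio of 1.79 (1.21 to 2.66), 2.03 (1.35 to 3.06) without the 2 cells and 1.24 (0.870 to 1.77) in Ms4a2-negative mast cells.

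The genes nearest to the targeted pathway were sparse. Of the 25 genes of phospholipid acyl remodelling, 10 were tested and 0 were called, with a median log2 ratio of 0.74, against 0.23 over all genes. With genes at 0 in one library set to their bound the medians were 0.71 and 0.097. Without the 2 deep cells they were 1.04 over 7 tested genes and 0.03 over all genes. In Ms4a2-negative mast cells, all cells included, they were -0.0003 over 8 tested genes and -0.13 over all genes, so the raised median was not seen there. Lpcat1 had 0 UMIs in LPCAT3-AKO and 2 UMIs in Control mast cells, Lpcat2 2 UMIs in LPCAT3-AKO and 2 UMIs in Control mast cells, and Lpcat4 0 in both. The choline pathway gave the best counted members: Chka, the choline kinase, had 24 UMIs in LPCAT3-AKO and 44 UMIs in Control mast cells, a ratio of 0.660 (0.384 to 1.11), and Chpt1, which makes phosphatidylcholine from diacylglycerol, had 25 UMIs in LPCAT3-AKO and 18 UMIs in Control mast cells, a ratio of 1.68 (0.880 to 3.27). Without the 2 cells Chpt1 was called higher at 2.09 (1.08 to 4.11) and so was Pcyt1a at 5.72 (1.09 to 56.5), on 7 UMIs in LPCAT3-AKO and 2 in Control. Ms4a2-negative mast cells gave 1.86 (0.926 to 3.996) for Chpt1 and 0.745 (0.172 to 3.24) for Pcyt1a, and neither was called there.

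Early response genes were high in mast cells of both libraries. Egr1, a factor induced within minutes of stimulation, had 8572 CPM (7821 to 9377) in LPCAT3-AKO and 10145 CPM (9399 to 10934) in Control mast cells, against 2542 CPM and 2829.98 CPM in other barcodes. Fos had 4537 CPM in LPCAT3-AKO and 5132 CPM in Control mast cells, against 2812 CPM and 2931 CPM in other barcodes. Of 29 tested immediate-early and heat shock genes, 0 were called higher and 3 lower (against 2.04% and 1.13% of all genes). The median log2 ratio of the list was -0.18. Jun had a ratio of 0.658 (0.537 to 0.805), 0.768 (0.620 to 0.948) without the 2 cells, no longer called. In Ms4a2-negative mast cells it was 1.45 (1.19 to 1.77) up to 5000 UMIs, not called, and 1.59 (1.31 to 1.94) with the deep cells in, called higher. The co-chaperone Dnajb1 had 15 UMIs in LPCAT3-AKO and 44 UMIs in Control mast cells, a ratio of 0.412 (0.213 to 0.755), 0.446 (0.214 to 0.859) without the 2 cells and 0.776 (0.512 to 1.18) in Ms4a2-negative mast cells. Nr4a2, an orphan receptor of the early response, had 5 UMIs in LPCAT3-AKO and 23 UMIs in Control mast cells, in 3 and 7 cells, a ratio of 0.263 (0.0781 to 0.707), 0.213 (0.0410 to 0.706) without the 2 cells and 0.432 (0.186 to 0.954) in Ms4a2-negative mast cells, where it was also called lower. Its log2 ratio had the opposite sign, 1.92, under a stricter minimum of genes per barcode.

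Interferon and NF-kB genes gave few calls. Over all genes, the shares called were 2.04% higher and 1.13% lower. Of 15 tested interferon response genes, Ifitm3 and Ifi27l2a were called higher and 0 lower, with a median of 0.25, and of -0.52 without the 2 deep cells. Ifitm3 had 30 UMIs in LPCAT3-AKO and 8 UMIs in Control mast cells, and 5 LPCAT3-AKO UMIs were left without the 2 cells. Ifi27l2a had 30 UMIs in LPCAT3-AKO and 7 UMIs in Control mast cells, and 6 LPCAT3-AKO UMIs were left; neither was called without the 2 cells. Of 14 tested genes of NF-kB feedback, 0 were called, with a median of 0.53, of 0.13 with genes at 0 in one library set to their bound and of 0.12 without the 2 deep cells, and with Nfkbia, which holds NF-kB in the cytoplasm, at a ratio of 1.45 (1.10 to 1.91) and, without the 2 cells, 1.64 (1.23 to 2.18), where it was called higher. Of 8 tested cell cycle genes, Stmn1 and Hmgb2 were called lower, with a median of -1.49 and of -0.93 at the bound. Stmn1 had 5 UMIs in LPCAT3-AKO and 20 UMIs in Control mast cells, and Hmgb2 had 9 UMIs in LPCAT3-AKO and 29 UMIs in Control mast cells; both were also called without the 2 cells, and in Ms4a2-negative mast cells their ratios were 1.49 (0.399 to 6.76) and 2.09 (0.710 to 7.40), not called. With at most 5% mt- UMIs the log2 ratio was -0.33 for Stmn1 and 0.13 for Hmgb2, and neither was called. Mki67, a marker of dividing cells, had 0 UMIs in LPCAT3-AKO and 12 UMIs in 4 Control mast cells, short of the 5 cells the rule asked for, and 0 UMIs in LPCAT3-AKO and 1 in Control Ms4a2-negative mast cells.

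The largest ratios were mostly of genes with very few UMIs. The highest was Fabp4, with 71 UMIs in LPCAT3-AKO and 4 UMIs in Control mast cells, and 67 of the 71 came from the cell of 5480 UMIs; its ratio was 21.5 (8.02 to 80.9) with that cell and 1.23 (0.180 to 7.25) without the 2 deep cells. The next 7 had 5 to 9 UMIs in LPCAT3-AKO and 0 in Control. Tmem245 had 9 UMIs, at least 3.63-fold higher, Necap2, Pds5b and Xpo7 had 6 each, at least 2.42-fold higher, and Alas1, Anapc15 and Ctps2 had 5 each, at least 2.02-fold higher. Alas1 begins haem synthesis and Ctps2 makes the nucleotide CTP, a donor in phospholipid synthesis. The 8 lowest had 0 UMIs in LPCAT3-AKO and 7 to 9 in Control: AI413582 had 9, at least 2.48-fold lower, Golt1b and Osm 8 each, at least 2.21-fold lower, and Ak3, Chtop, Gch1, Kin and Mrps25 7 each, at least 1.93-fold lower. Gch1 makes the cofactor of Tph1, tetrahydrobiopterin. Osm was the only one of these 16 genes that was called in Ms4a2-negative mast cells.

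Ms4a2-negative mast cells gave a second set of cells for the same comparison, with the cells over 5000 UMIs left out of both. There, 58 genes (1.46%) of 3968 were called higher and 116 (2.92%) lower in LPCAT3-AKO, 4.39% in all. With the deep cells in, the shares were 1.58% higher and 2.53% lower, and over the whole wider selection 3.67% higher and 3.15% lower, 6.82% in all. The calls shared with mast cells of the rule, also up to 5000 UMIs, were 5 higher and 8 lower, and 2 genes were called in opposite directions, Mapre1 and Gm42418. With the deep cells in both sets, 7 were shared as higher, 10 as lower and 8 called in opposite directions, among them Jun, Actb, Lyz2, Retnla and Cd74. The 5 higher were Hes1, Eif4a2, Tulp4, Mia3 and Rpl38, and the lower ones included Ccl2, Tph1, Tax1bp1, Osm, Ndufb11, Nr4a2 and Rps3; they are named here after their values were seen. The shared calls are 5.495% of the 91 higher and 17.4% of the 46 lower calls in mast cells, and 8.62% of the 58 and 6.897% of the 116 calls in Ms4a2-negative mast cells.

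Hes1, a repressor that is a target of Notch signalling, had 40 UMIs in LPCAT3-AKO and 22 UMIs in Control mast cells, a ratio of 2.20 (1.28 to 3.88) in mast cells, 2.68 (1.53 to 4.78) without the 2 cells and 2.19 (1.22 to 4.14) in Ms4a2-negative mast cells. It was higher in other barcodes as well, at 141 CPM in LPCAT3-AKO and 80.5 CPM in Control. Eif4a2, a helicase of translation initiation, had 45 UMIs in LPCAT3-AKO and 28 UMIs in Control mast cells, a ratio of 1.94 (1.19 to 3.23), 2.22 (1.33 to 3.76) without the 2 cells and 3.08 (1.73 to 5.83) in Ms4a2-negative mast cells. It was higher in other barcodes too, at 222 CPM in LPCAT3-AKO and 165 CPM in Control. The Hes1 interval included 1 at the stricter minimum of genes (0.905 to 3.42) and with at most 5% mt- UMIs (0.907 to 3.16), and that of Eif4a2 at the stricter minimum of genes (0.753 to 2.59). Tax1bp1, an autophagy receptor that also dampens NF-kB signals, had 25 UMIs in LPCAT3-AKO and 60 UMIs in Control mast cells, a ratio of 0.504 (0.303 to 0.816), 0.491 (0.273 to 0.842) without the 2 cells and 0.449 (0.306 to 0.653) in Ms4a2-negative mast cells. It stood at 225 CPM in LPCAT3-AKO and 231 CPM in Control other barcodes. Ndufb11, a subunit of respiratory complex I, had 3 UMIs in LPCAT3-AKO and 22 UMIs in Control mast cells, a ratio of 0.165 (0.0316 to 0.549), and 3 UMIs in LPCAT3-AKO and 9 in Control Ms4a2-negative mast cells, with 184 CPM in LPCAT3-AKO and 185 CPM in Control other barcodes. Rpl38, a ribosomal protein, had a ratio of 1.68 (1.29 to 2.18) in mast cells and 1.56 (1.15 to 2.15) in Ms4a2-negative mast cells, and 2489.8 CPM in LPCAT3-AKO and 1596 CPM in Control other barcodes. Hes1, Eif4a2, Rpl38 and Ccl2 thus differed in the same direction in the rest of the fraction, while the levels of Tax1bp1 and Ndufb11 there were close.

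**Figure D4:**
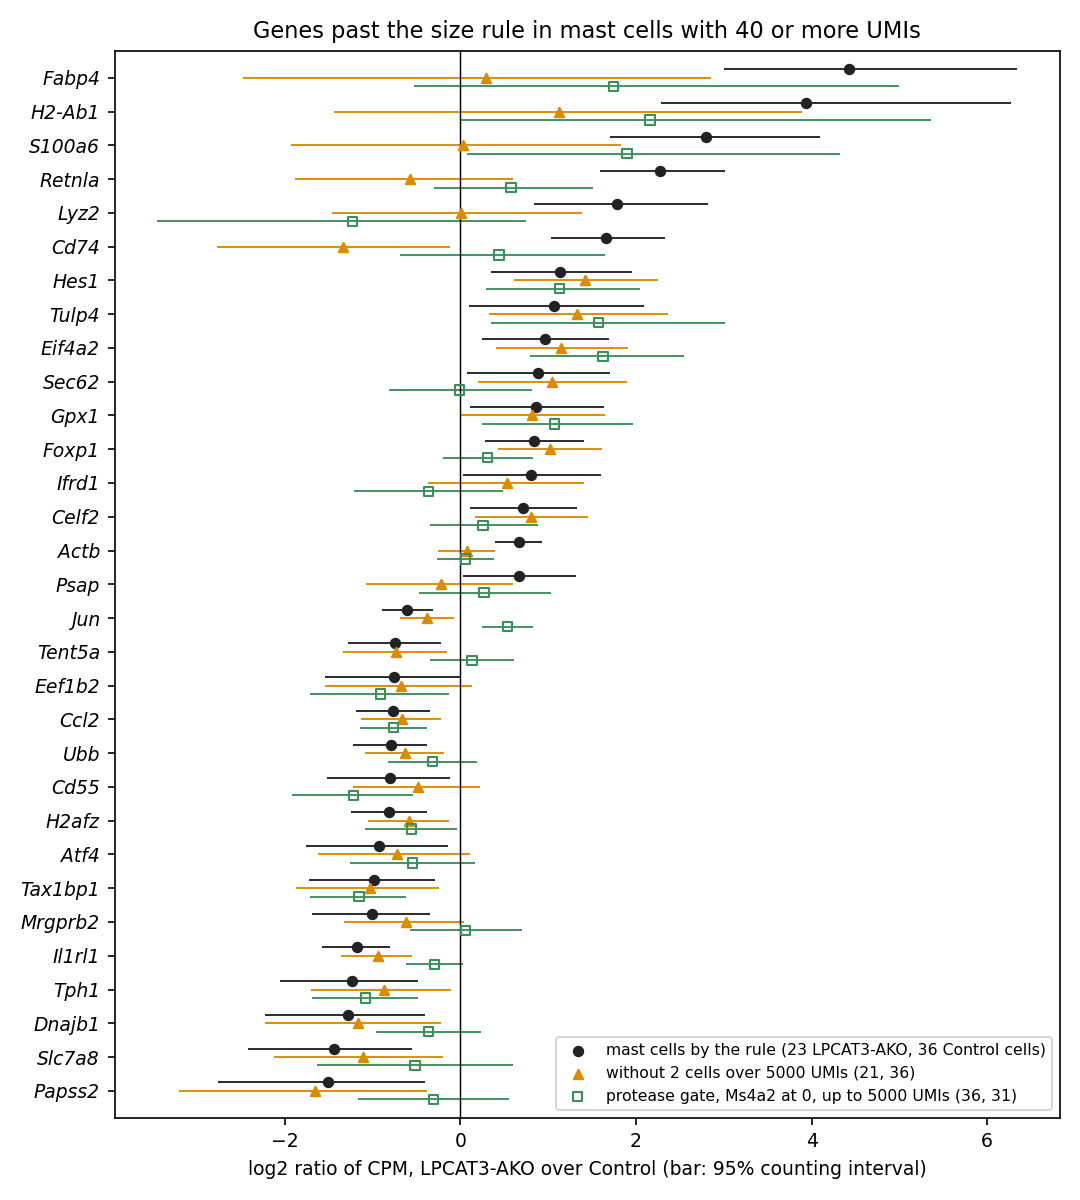
Log2 ratio of CPM, LPCAT3-AKO over Control, with 95% counting intervals, for the 31 genes called in mast cells with 40 or more UMIs over both libraries, ribosomal protein genes left out, chosen after the values were seen. Black circles are the mast cells of the rule, orange triangles the same without the 2 cells over 5000 UMIs, and green squares the Ms4a2-negative mast cells up to 5000 UMIs; the 6 topmost genes have lower ratios without the deep cells, while Hes1, Tulp4, Eif4a2, Ccl2, Tax1bp1 and Tph1 lie on one side in all 3 sets.

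Among the 31 called genes with 40 or more UMIs, ribosomal protein genes left out, 16 were higher and 15 lower. Of the 16, 6 were called without the 2 deep cells, Hes1, Tulp4, Eif4a2, Sec62, Foxp1 and Celf2, and 6 had more than 50% of their LPCAT3-AKO UMIs in 1 cell, Fabp4, H2-Ab1, Retnla, Lyz2, Cd74 and Psap. Cd74, the invariant chain of antigen presentation, lay on opposite sides of 1, with a ratio of 3.17 (2.04 to 5.04) with the 2 cells and of 0.395 (0.146 to 0.921) without them. Of the 15 lower genes, 9 were called without the 2 cells: Il1rl1, Tax1bp1, Tph1, Dnajb1, Tent5a, Ubb, Ccl2, Slc7a8 and Papss2. Ubb, a polyubiquitin gene, had 71 UMIs in LPCAT3-AKO and 149 UMIs in Control mast cells, a ratio of 0.576 (0.428 to 0.769), 0.648 (0.471 to 0.881) without the 2 cells and 0.803 (0.564 to 1.14) in Ms4a2-negative mast cells. H2afz, a histone variant gene, had a ratio of 0.571 (0.420 to 0.768), 0.668 (0.483 to 0.913) without the 2 cells and 0.679 (0.472 to 0.975) in Ms4a2-negative mast cells up to 5000 UMIs, not called; with the deep cells in, these gave 0.596 (0.429 to 0.826), called lower. With at most 5% mt- UMIs, the ratio of H2afz had an interval of 0.660 to 1.37 in mast cells and was not called.

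RNA of other cell types was low but present. Of the 10 fibroblast markers, 9 had a UMI in LPCAT3-AKO and 8 in Control mast cells, at a sum of 986 CPM in LPCAT3-AKO and 1038 CPM in Control, against 27693 CPM and 25397 CPM in other barcodes; Pdgfra was at 0. The 10 dendritic cell markers summed to 2923 CPM in LPCAT3-AKO and 667 CPM in Control, and to 315 CPM in LPCAT3-AKO without the 2 deep cells; Flt3, Xcr1, Clec9a, Ccr7 and Zbtb46 were at 0. Of the 10 T cell markers only the adaptor Lat, which mast cells use themselves, had a UMI, of the 10 NK cell markers only Nkg7, and of the 10 neutrophil markers none; the eosinophil genes Epx, Prg2 and Siglecf were at 0. The part of such RNA in the genotype ratios was not tested beyond leaving out the 2 deep cells.

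The 10 macrophage and monocyte markers summed to 4663 CPM in LPCAT3-AKO and 4123 CPM in Control mast cells, and most of this was Apoe, with 8 of the 10 detected in each library and Ly6c2 at 0. Apoe, a lipid carrier that macrophages make in bulk, was detected in all 59 mast cells, at 3676 CPM (3190.4 to 4216) in LPCAT3-AKO and 3693 CPM (3249 to 4181) in Control. Other barcodes had 2244 CPM in LPCAT3-AKO and 3621 CPM in Control, in 79.4% and 88.9% of barcodes at medians of 8900 and 8396 UMIs. The C1q genes had 7 UMIs in LPCAT3-AKO and 11 UMIs in Control mast cells. Apoe UMIs per C1q UMI were 29.3 in LPCAT3-AKO and 22.6 in Control mast cells, against 0.811 and 1.20 in other barcodes. The rule limited C1q in mast cells, and the source of their Apoe was not tested.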

How the data were processed

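Single-cell 3' libraries of the stromal vascular fraction were deposited as raw UMI counts per gene and barcode; per the submitters' processing notes, Cell Ranger 6.1.2 with build mm10 and Seurat 4.10 were used, with order and settings not stated. The deposited counts were not normalized or corrected for free RNA. Kept barcodes had 500 or more genes and at most 10% mt- UMIs. Counts were summed per library over the mast cells and expressed as CPM. Ratios have exact binomial intervals of the pair of sums, shares have Clopper-Pearson intervals, and log2 ratios use CPM + 10. The calling procedure was tested on simulated data, drawn as independent counts from the pooled Control mast cells without spread between cells. Such data do not test calls that rest on few cells. Named genes were the 8 highest and 8 lowest called, the 12 highest against other barcodes with the rule genes left out and the up to 6 best counted of each list, without mitochondrial, ribosomal protein, Gm, Rik, globin, immunoglobulin and sex-linked genes and markers of other cell types; genes with 40 or more UMIs and genes called in both sets were added after their values were seen. The members and lists were chosen with earlier results of these data known. Python 3.11.15, numpy 2.4.6, scipy 1.17.1, pandas 2.3.3 and scanpy 1.11.5 (Scrublet, as an alternative) were used. Alternatives changed the filters, the marker limits, doublet removal, scaling, thinning to 2000 UMIs and deep cells. No doublets were removed in the values reported. 1 gene among the calls shared by both sets of cells is not reported here.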

Additional observations from a re-analysis of the deposited data

How the results depend on the processing

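The ratio of mast cell shares ran from 0.621 to 0.940 over the alternatives, within its counting interval of 0.385 to 1.18. The wider protease selection called 133 genes higher and 114 lower, weighting each cell alike called 107 lower, and thinning to 2000 UMIs called 29 higher, where 13 LPCAT3-AKO and 19 Control cells were too shallow to enter. The wider selection and the removal of cells over 5000 UMIs were chosen after seeing the data. The following log2 ratios had the opposite sign to that reported, and the cause was not tested unless the setting removes the cells named. Nr4a2 was at 1.92 under the stricter minimum of genes per barcode and at 2.41 after thinning, and Hmgb2 at 0.13 with at most 5% mt- UMIs. With Dcn and C1q under 3, Retnla was at -0.53, Lyz2 at -0.11, Cd74 at -1.41 and Psap at -0.48. With Scrublet doublets removed, Retnla was at -0.48, Lyz2 at -0.19, Cd74 at -0.37 and Psap at -0.31. Without cells over 5000 UMIs, Retnla was at -0.56, Cd74 at -1.29 and Psap at -0.21, and without the top cell of each gene Retnla and Cd74 were at -0.37 and Psap at -0.14. In the wider selection Lyz2 was at -0.62, Actb at -0.027, Jun at 0.059 and Ifi27l2a at -0.012. Psap was at -0.004421 with cells weighted alike and -0.023 after thinning, and Tent5a at 0.22 after thinning. Over the 9 settings that change the cells or their weights, 567 of 657 gene ratios stayed within the reported interval or had Control at 0. A ratio with Control at 0 is not finite and was counted as unchanged, so the 567 are not all ratios that held. Another 66 lay outside the interval and 24 had the opposite sign, and 58 of 63 called genes lost their call under at least 1 setting. The other 5 settings cannot move a gene's ratio or move all alike, so they bear on no single gene. No paired analysis was possible because each genotype had 1 library and no test was run. The basophil class and its comparison with mast cells gave no value, since Mcpt8 was at 0, and other splits by Mcpt8 could change nothing. With 1 library per genotype and under 40 cells in each, differences between mice cannot be told apart from differences between genotypes.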
